A study of Mus musculus with 23 samples.

Results

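The 28 genes described here make, sense, take up, move, store and export cholesterol, and they were followed in whole mouse testis and in testis explants kept in culture. They were taken by name, with no cut on their levels, but with earlier results of these data known. They comprise 19 enzymes of cholesterol synthesis, 3 genes of the sterol-sensing machinery and 6 genes of uptake, transport, storage and efflux. The count table holds 27466 genes. All 28 were found in the table and all 28 passed the filter on low counts. RNA came from testes of wild-type CD-1 mice aged 6.5 days postpartum (dpp), 10.5 dpp, 22.5 dpp or 36.5 dpp, and from explants of 6.5 dpp testes cultured for 4, 16 or 30 days (D4, D16 and D30), so that each culture time has an in vivo stage of the same age. The medium was α-MEM with KnockOut serum replacement, gentamicin and retinol, and all explants received it. Tissue was fresh, or, at 6.5 dpp and for 1 library at D30, had been frozen by controlled slow freezing (CSF) and thawed. Before extraction the necrotic centre of the explants was cut away and explants were pooled within a replicate, so a culture library describes the remaining tissue and not single explants.

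The comparisons used 21 libraries. In vivo testis gave 4 for 6.5 dpp, of which 3 were CSF, 3 each for 10.5 and 22.5 dpp and 2 for 36.5 dpp. Explants gave 3 for D4, 2 for D16 and 4 for D30, of which 1 was CSF. Totals ran from 28351546 to 69029328 counts a library. The column labelled 6.5 dpp fresh replicate 3 held the same counts as fresh replicate 2 and was counted once. The library labelled 6.5 dpp fresh replicate 1 stood apart from its group: its Spearman correlation across genes was 0.984 with D16 replicate 1 and 0.865 with 6.5 dpp fresh replicate 2, and it was left out of the main comparisons. The markers bore out testis as the tissue, with the germ cell genes Ddx4 and Dazl summing to between 549.6 and 1632 normalised CPM (counts-per-million, defined further on) in every library used, and no marker of 9 cell type lists was at 0 in all libraries of a stage. Because the libraries were made from bulk tissue, fewer cells of a type and less RNA per cell cannot be told apart.

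Cholesterol is built from acetyl-CoA through mevalonate, isoprenoid units, squalene and lanosterol, and the steps after lanosterol remove methyl groups and shift double bonds until cholesterol is reached. When sterol in the endoplasmic reticulum is low, SCAP carries the SREBF2 protein to the Golgi, where it is cut to release a transcription factor that switches on most genes of synthesis. When sterol is high, INSIG proteins hold SCAP back, and oxysterol-activated LXR receptors raise the efflux transporters ABCA1 and ABCG1. In the testis, cholesterol is the substrate for androgens in Leydig cells, Sertoli cells take it up and export it, and meiotic germ cells and spermatids carry their own forms of some enzymes and build up sterol intermediates after lanosterol.

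Promoter sequence was at hand for 21 of the 28 members in RefSeq windows reaching from 250 bases before to 50 bases after the start site (GRCm38.p6). Fdps, Fdft1, Sqle, Scarb1, Npc1, Stard4 and Abcg1 had no entry. The core of the sterol response element, bound by SREBF2, was searched as TCACNCCAC (GTGGNGTGA on the other strand), the CCAAT box by the letters of its name and, for the other strand, as ATTGG, and the cAMP response element as TGACGTCA, on both strands and with any overlap allowed. The sterol response element core was found in 1 of 21 members, Hmgcs1, where it began 137 bases before the start site, and in 1.39% of 18991 genes with a window. The cAMP response element was found in 0 of 21 members and in 2.52% of genes. A CCAAT box was found in 18 of 21 members against 42.0% of genes, with 5 in Mvk, 4 each in Hmgcs1 and Nsdhl and none in Acat2, Scap and Abca1. A match describes letters and not a bound site, and no match says only that these letters were not in this window. The 250 bases before the start site are printed for Hmgcs1 (chr13:119690101-119690350, + strand), the member with the sterol element, and for Cyp51 (chr5:4104698-4104947, − strand), Msmo1 (chr8:64733579-64733828, − strand) and Ebp (chrX:8193513-8193762, − strand), which take part in the differences described further on. Capitals mark the sterol response element core and the CCAAT boxes on either strand.
Hmgcs1: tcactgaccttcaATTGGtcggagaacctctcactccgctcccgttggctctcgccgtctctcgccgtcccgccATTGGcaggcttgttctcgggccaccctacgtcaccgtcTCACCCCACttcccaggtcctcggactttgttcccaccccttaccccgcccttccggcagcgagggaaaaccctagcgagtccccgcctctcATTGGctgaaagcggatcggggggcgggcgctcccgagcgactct
Cyp51: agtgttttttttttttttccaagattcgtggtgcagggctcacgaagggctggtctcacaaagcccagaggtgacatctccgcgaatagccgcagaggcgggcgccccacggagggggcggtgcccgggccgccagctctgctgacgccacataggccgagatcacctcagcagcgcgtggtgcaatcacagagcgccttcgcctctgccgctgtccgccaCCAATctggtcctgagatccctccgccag
Msmo1: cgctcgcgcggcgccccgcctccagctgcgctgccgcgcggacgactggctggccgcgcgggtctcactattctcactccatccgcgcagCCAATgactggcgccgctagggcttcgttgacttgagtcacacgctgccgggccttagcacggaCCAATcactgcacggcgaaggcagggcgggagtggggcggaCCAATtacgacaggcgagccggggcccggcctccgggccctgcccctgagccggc
Ebp: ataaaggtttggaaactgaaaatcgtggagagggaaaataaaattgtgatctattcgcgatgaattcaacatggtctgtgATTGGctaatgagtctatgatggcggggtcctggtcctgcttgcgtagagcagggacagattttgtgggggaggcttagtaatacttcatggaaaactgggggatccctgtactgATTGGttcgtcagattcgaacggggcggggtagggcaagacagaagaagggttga

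Levels are given as normalised counts-per-million (CPM), a gene's share of the library total after TMM scaling, which evens out libraries dominated by a few abundant transcripts. The TMM factors were 0.6609 and 0.6447 for the libraries at 36.5 dpp and between 0.8771 and 1.151 for the others, so values at 36.5 dpp depend on the scaling more than others do. Summed over the 19 synthesis enzymes, the 6.5 dpp libraries held 1300 to 1548 normalised CPM. The sum was then 1025 to 1330 (10.5 dpp) and 942.4 to 1058 (22.5 dpp), and stood at 1393 to 1458 in the 36.5 dpp testes. D4 explants held 1606 to 1674, D16 explants 1188 to 1244 and D30 explants 1102 to 1237. Every D4 library thus lay above every library of the other stages. Summed over all 28 members, D4 was also the highest, at 3433 to 3651, and 22.5 dpp (1722 to 2168) and 36.5 dpp (2017 to 2054) held the lowest values. Of the 28 members, 15 had their highest stage mean at D4, 5 at 36.5 dpp and 4 at 6.5 dpp, while 15 had their lowest stage mean at 36.5 dpp and 7 at 22.5 dpp.

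**Figure D1:**
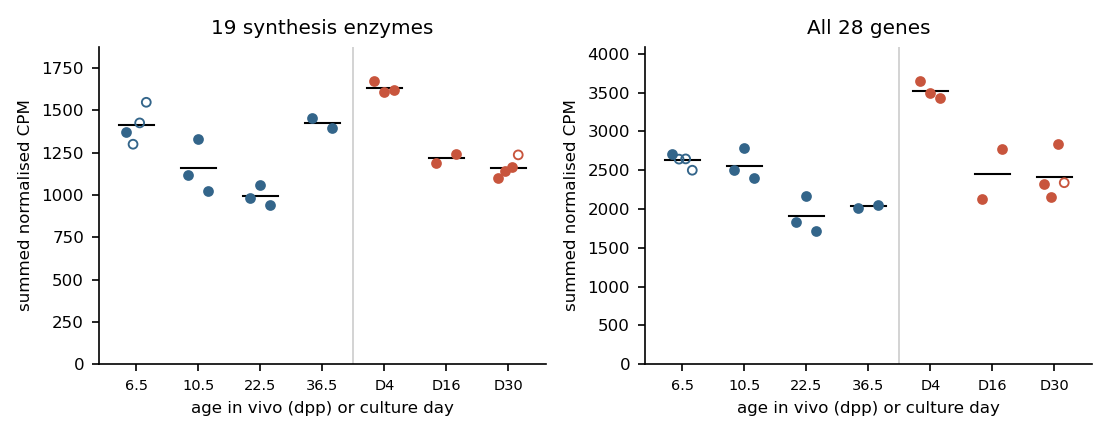
Summed normalised CPM of the members by stage, with 1 point per library, blue for in vivo testis and red for culture, open symbols for CSF tissue and a bar at the stage mean. The 19 synthesis enzymes reached 1606 to 1674 at D4, above every other stage, and lay at 942.4 to 1058 at 22.5 dpp.

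The spread of stage means was widest for Abcg1, a sterol exporter, with a 15.84-fold range from 3.056 at 36.5 dpp to 48.40 at D4. It was 6.822-fold for Fdft1, squalene synthase, and 5.222-fold for Mvd, the decarboxylase that closes the mevalonate steps, and narrowest for Pmvk, the phosphomevalonate kinase, at 1.638-fold. Levels per kilobase of exon depend on the length taken for each gene, here all its annotated exons. So scaled, Hmgcs1, the synthase that feeds mevalonate formation, had the highest stage mean of the 28 at every stage except 36.5 dpp. Scarb1 had 8500 bases of exon and a longest coding transcript of 2521, and Hmgcs1 4594 and 3464. By these transcript lengths Scarb1 would stand above Hmgcs1 at D4, so the first place of Hmgcs1 depends on the length taken. Other ranks by transcript length were not computed. By exon length Fdft1 came first at 36.5 dpp, at 100.3 normalised CPM per kilobase, ahead of Cyp51 at 43.56, Sqle at 36.68 and Hmgcs1 at 32.06. Idi1, the isopentenyl diphosphate isomerase, was the lowest per kilobase at every stage except 36.5 dpp, where Abcg1 was lower at 0.4188.

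**Figure D2:**
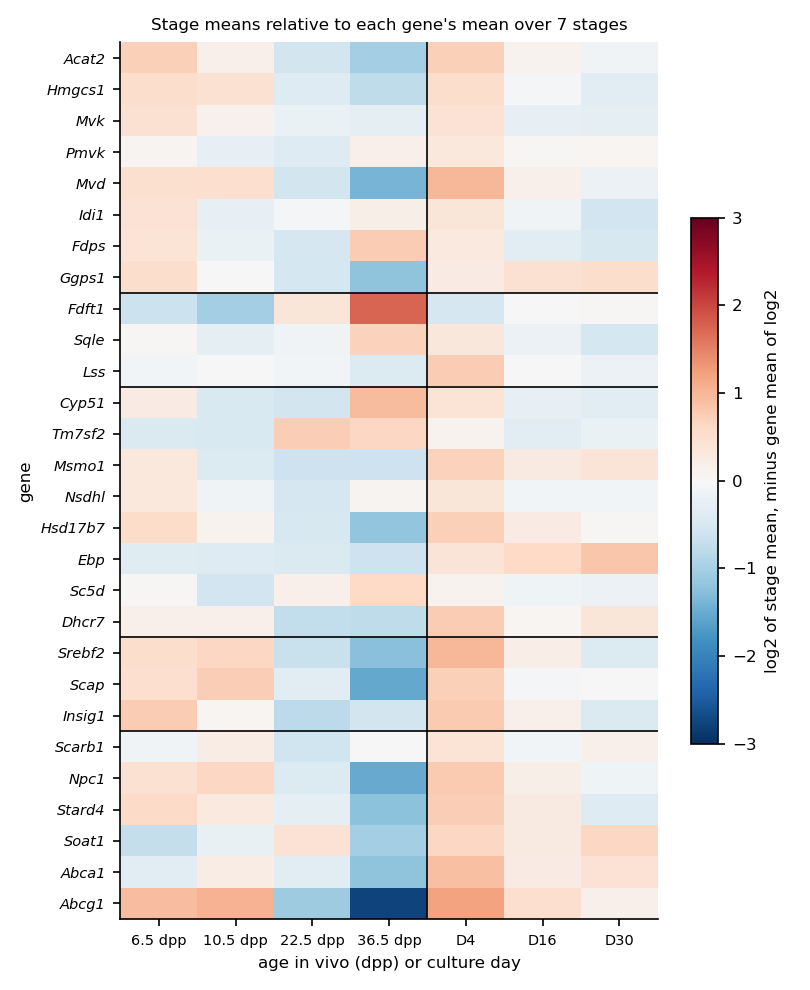
Each row is a member in pathway order and each column a stage, coloured by the log2 stage mean minus the gene's mean over stages. The column of D4 is mostly above 0 and that of 36.5 dpp mostly below it, with Fdft1, Sqle, Cyp51, Fdps and Sc5d highest at 36.5 dpp.

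The first question was how these genes change as the testis matures in vivo. Between 6.5 and 10.5 dpp none of the 28 was called by edgeR's quasi-likelihood test at an adjusted p under 0.05, where 0.675% of 19255 genes were called higher and 0.467% lower. At an unadjusted p under 0.05 the test gave 1 member higher and 10 lower, where 5.96% of all genes were higher and 8.09% lower, and DESeq2 called 2 members lower beside 2.02% of the genes it tested. The median log2 difference of the members was -0.29, against -0.01 over all genes. Most libraries at 6.5 dpp were CSF while those at 10.5 dpp were fresh, so the parts of age and freezing cannot be fully told apart.

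Between 10.5 and 22.5 dpp, when spermatocytes fill the tubules, 4 members rose and 12 fell, beside 33.6% of all genes called higher and 27.9% lower. With library totals as the only scaling, 2 were called higher and 16 lower, the calls of Sc5d and Soat1 being lost. All 3 genes of sterol sensing fell. Srebf2, the transcription factor itself, stood at 273, 274 and 286 normalised CPM at 10.5 dpp and at 99.7, 132 and 109 at 22.5 dpp, a log2 fold change of -1.29 ± 0.24 (SE, adjusted p = 0.000183 in edgeR). Its escort Scap fell by 1.07 on the log2 scale (adjusted p = 0.00126 in edgeR) and its retention factor Insig1 by 0.84 (adjusted p = 0.0256). Mvd fell from 40.6, 46.6 and 42.7 to 18.1, 22.1 and 22.3 (log2 fold change -1.06 ± 0.16, adjusted p = 2.5e-05 in edgeR). The groups did not overlap for any of these 4 genes. Markers of several cell types moved between the same stages. The Sertoli cell markers Cldn11, Dhh, Fshr and Rhox5 summed to 574.5 to 667.1 normalised CPM at 10.5 dpp and 233.5 to 350.8 at 22.5 dpp (3 of 4 called lower, 1 higher), and the peritubular myoid markers to 732.2 to 813.4 and then 317.2 to 442.8 (2 of 3 lower). Endothelial markers went from 147.1 to 167.3 down to 36.19 to 52.43 (3 of 3 lower), while spermatocyte markers went from 131.9 to 172.1 up to 1647 to 1819 (3 of 3 higher) and all 5 macrophage markers were called higher. Their part in the members' changes was not tested.

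Acat2, which joins acetyl-CoA units, and Hmgcs1 were also lower at 22.5 than at 10.5 dpp (log2 fold changes -0.69 ± 0.23 and -0.85 ± 0.27, adjusted p = 0.0133 and 0.0113 in edgeR), as were Hsd17b7 (-0.60 ± 0.23, adjusted p = 0.0285) and Dhcr7 (-0.90 ± 0.17, adjusted p = 0.000203), enzymes of the steps after lanosterol. Of uptake and efflux, Scarb1, the receptor for high-density lipoprotein, Npc1, which lets cholesterol out of lysosomes, the sterol carrier Stard4 and Abcg1 fell. Abcg1 went from 44.9, 39.9 and 44.3 to 8.13, 13.1 and 8.74 (log2 fold change -2.11 ± 0.35, adjusted p = 4.89e-05 in edgeR), the largest fall among the members in this comparison. The 4 members that rose were Fdft1, Tm7sf2, a sterol reductase, Sc5d, a sterol desaturase, and Soat1, which esterifies cholesterol for storage. Fdft1 went from 59.1, 66.0 and 61.2 to 186, 105 and 195 (log2 fold change 1.38 ± 0.26, adjusted p = 0.000219 in edgeR), and Tm7sf2 from 10.1, 12.8 and 10.8 to 23.8, 26.7 and 26.9 (1.20 ± 0.21, adjusted p = 8.34e-05). Of the 16 calls, 12 were kept in all 21 fits that left out 1 library, and those of Acat2, Hmgcs1, Hsd17b7 and Insig1 were lost in at least 1.

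Between 22.5 and 36.5 dpp, over which spermatids become abundant, 6 members rose and 7 fell, shares close to the 23.3% of all genes called higher and 27.5% lower. The split was 8 to 6 with RLE factors and 3 to 17 with library totals alone, and the median difference over all genes moved from -0.13 with TMM to 0.07 and -0.63. The rising members were Pmvk, Fdps, Fdft1, Sqle, Cyp51 and Scarb1, of which Fdps, Fdft1, Sqle and Cyp51 are enzymes from farnesyl diphosphate to the first step after lanosterol. Lss, the enzyme between Sqle and Cyp51, was not called, at 55.5, 62.3 and 54.5 and then 35.4 and 56.2. Cyp51, the lanosterol demethylase, went from 66.7, 74.8 and 62.3 to 211 and 174 (log2 fold change 1.5 ± 0.23, adjusted p = 5.32e-05 in edgeR). Fdft1 reached 404 and 444 at 36.5 dpp (1.39 ± 0.29, adjusted p = 0.000754), and Sqle, squalene epoxidase, 201 and 206 after 127, 108 and 116 (0.80 ± 0.16, adjusted p = 0.000583). Fdps, farnesyl diphosphate synthase, stood at 35.6 and 35.3 after 12.5, 15.1 and 16.6 (1.27 ± 0.28, adjusted p = 0.00124). For each of these 4 genes both libraries at 36.5 dpp lay above the 3 at 22.5 dpp. With library totals alone Pmvk, Sqle and Scarb1 were no longer called, Sqle being higher by 0.29 on the log2 scale.

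The falling members at 36.5 dpp were Mvd, Hsd17b7, Scap, Npc1, Stard4, Soat1 and Abcg1. Soat1, which had risen by 22.5 dpp to 243, 263 and 217, stood at 80.4 and 97.9 at 36.5 dpp (log2 fold change -1.43 ± 0.23, adjusted p = 0.000105 in edgeR). Abcg1 fell further, to 2.92 and 3.19 (-1.71 ± 0.41, adjusted p = 0.00229), and Stard4 from 48.6, 49.3 and 36.4 to 23.8 and 22.3 (-0.96 ± 0.16, adjusted p = 0.000159). Of the 13 calls, 8 were kept in every fit that left out 1 library; those of Pmvk, Hsd17b7, Scap, Scarb1 and Npc1 were not. Summed marker levels moved with these stages. The spermatid markers Acrv1, Tnp1, Prm1 and Prm2 summed to 7.577 to 57.95 normalised CPM at 22.5 dpp and to 21520 to 26310 at 36.5 dpp, and the Sertoli cell markers to 233.5 to 350.8 and then 118.8 to 136.2. The Leydig cell markers went from 767.4 to 940.7 up to 2224 to 2754. Their part in the members' changes was not tested.

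The next question was how the genes move in culture. After 4 days, 8 members were higher than in testes of 6.5 dpp, the age at which explants were taken, and none was lower. Of all genes 10.8% were higher and 10.1% lower. The members' median log2 difference was 0.23 against -0.03 over all genes, and 24 of 28 lay above that all-gene median. Soat1 rose most, from 115, 114, 103 and 109 to 315, 254 and 261 (log2 fold change 1.33 ± 0.18, adjusted p = 5.51e-05 in edgeR). Lss, lanosterol synthase, stood at 67.5, 67.2, 61.4 and 33.9 at 6.5 dpp and at 106, 108 and 99.2 at D4 (0.86 ± 0.22, adjusted p = 0.011), and Ebp, a sterol isomerase, at 26.6, 25.5, 26.2 and 43.8 and then at 47.1, 48.8 and 58.9 (0.76 ± 0.19, adjusted p = 0.00972). Neither gene's groups overlapped, although CSF replicate 3 was the low value for Lss and the high value for Ebp at 6.5 dpp. Dhcr7, the last reductase of one branch to cholesterol, rose by 0.62 ± 0.16 (adjusted p = 0.00872 in edgeR) and Mvd by 0.50 ± 0.15 (adjusted p = 0.0226). Tm7sf2, Scarb1 and the exporter Abca1 were called at adjusted p = 0.0453, 0.0452 and 0.0292 in edgeR. The count fell to 5 without 6.5 dpp CSF replicate 2 and to 4 without either D4 replicate 2 or D4 replicate 3, and was 4 with 6.5 dpp fresh replicate 1 put back. Calls of Lss, Dhcr7 and Soat1 were kept in all 21 fits. Of the 4 libraries at 6.5 dpp 3 were CSF while those at D4 were fresh, and with fresh tissue only, which leaves 1 library at 6.5 dpp, 2 members were called, Ebp and Soat1. The Sertoli cell markers summed to 326.9 to 572.7 at 6.5 dpp against 889.9 to 1076 at D4 (2 of 4 called higher) and the endothelial markers to 105.6 to 178.5 against 204.3 to 216.0 (2 of 3 higher). The Leydig cell markers summed to 455.9 to 788.1 against 236.1 to 434.1 (2 of 4 lower) and the macrophage markers to 52.72 to 85.7 against 28.65 to 32.60 (5 of 5 lower), and the part of tissue handling and of these cell types was not tested.

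From D4 to D16 none of the members rose and 5 fell, in a comparison that shares the D4 libraries with the one before, beside 18.4% of genes higher and 5.48% lower. The 5 were Mvd, Sqle, Dhcr7, Srebf2 and Stard4. Mvd went from 55.2, 58.2 and 68.2 to 33.8 and 34.3 (log2 fold change -0.83 ± 0.18, adjusted p = 0.00241 in edgeR) and Srebf2 from 357, 355 and 370 to 174 and 241 (-0.80 ± 0.27, adjusted p = 0.0397). Sqle moved from 166, 159 and 147 to 119 and 102 (-0.51 ± 0.16, adjusted p = 0.0281). The groups did not overlap, with D16 lower, in 22 of 28 members against 25.6% of all genes, and with D16 higher in 0 of 28 against 30.7%. The median log2 difference was -0.54 for the members and 0.03 for all genes. The count of calls was sensitive to single libraries: 1 without D16 replicate 1, 2 without D4 replicate 2, 3 without D4 replicate 1, 8 without either library of 36.5 dpp and 11 without 6.5 dpp CSF replicate 3. The last 3 libraries are outside the comparison and share its fit. The fall of Mvd was called in all of them. Macrophage markers moved the other way, from 28.65 to 32.60 at D4 up to 116.9 to 132.2 at D16 (5 of 5 called higher). Spermatocyte markers also rose, from 216.9 to 275.0 up to 678.4 to 1008, and spermatid markers from 0.3185 to 0.7287 up to 3.735 to 25.04. Leydig cell markers went from 236.1 to 434.1 down to 175.2 to 176.7, and myoid markers from 342.5 to 508.6 down to 243.1 to 244.9. Sums of the Sertoli cell, endothelial, adipocyte and germ cell markers overlapped between the stages. The part of these cell types was not tested.

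From D16 to D30, 0 members were called higher and 1 lower, where 1.46% of genes were higher and 0.332% lower. The member was Stard4, at 63.0 and 67.8 and then 42.4, 40.0, 44.6 and 40.2 (log2 fold change -0.65 ± 0.15, adjusted p = 0.0292 in edgeR). It was no longer called without D16 replicate 2, D30 fresh replicate 1, D30 fresh replicate 2 or D30 CSF replicate 1, although its D30 libraries all lay below both D16 libraries. At an unadjusted p under 0.05 the test gave 0 members higher and 3 lower, beside 7.10% and 4.63% of all genes.

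The explants were then set against testes of the same age, the comparison that asks what culture changes. At D4, 7 members were higher than at 10.5 dpp and none was lower, beside 4.92% of genes higher and 3.18% lower. These were Sqle, Cyp51, Msmo1, Ebp, Sc5d, Dhcr7 and Soat1, so that 5 of the 8 enzymes after lanosterol were among them. Msmo1, the sterol C4 methyl oxidase, stood at 64.6, 83.0 and 57.2 at 10.5 dpp and at 148, 145 and 141 at D4 (log2 fold change 1.09 ± 0.27, adjusted p = 0.0157 in edgeR). Cyp51 stood at 68.8, 84.4 and 64.0 and then at 145, 127 and 124 (0.87 ± 0.21, adjusted p = 0.0125), and Soat1 at 161, 165 and 134 and then at 315, 254 and 261 (0.85 ± 0.20, adjusted p = 0.0114). Each of these had all 3 explant libraries above all 3 testis libraries. Ebp, Dhcr7, Sc5d and Sqle were higher by 0.77 ± 0.21, 0.61 ± 0.17, 0.67 ± 0.20 and 0.59 ± 0.14 on the log2 scale (adjusted p = 0.0279, 0.0302, 0.0434 and 0.0144 in edgeR).

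The other members at D4 mostly leaned the same way without passing the threshold. The groups did not overlap, with D4 higher, in 22 of 28 members against 21.9% of all genes, and with D4 lower in 0 of 28 against 24.7%. The median log2 difference of the members was 0.57 against -0.01 over all genes, and 27 of 28 lay above that all-gene median, Scap being the exception at -0.02. At an unadjusted p under 0.05 the test gave 15 members higher and 0 lower, beside 10.6% and 8.49% of all genes. Lss (0.79 ± 0.24, adjusted p = 0.0534 in edgeR) and Stard4 (0.45 ± 0.14, adjusted p = 0.0563) were close to the threshold, and Hmgcs1 was far from it (0.07 ± 0.27, adjusted p = 0.969). None of the 7 calls was kept in every fit: 0 were left without 10.5 dpp replicate 3, 1 without 10.5 dpp replicate 1, 3 without D4 replicate 1 or D4 replicate 2, 4 without 10.5 dpp replicate 2 or D4 replicate 3, and 11 members were called without 6.5 dpp CSF replicate 3. With 6.5 dpp fresh replicate 1 put back the count was 2.

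**Figure D3:**
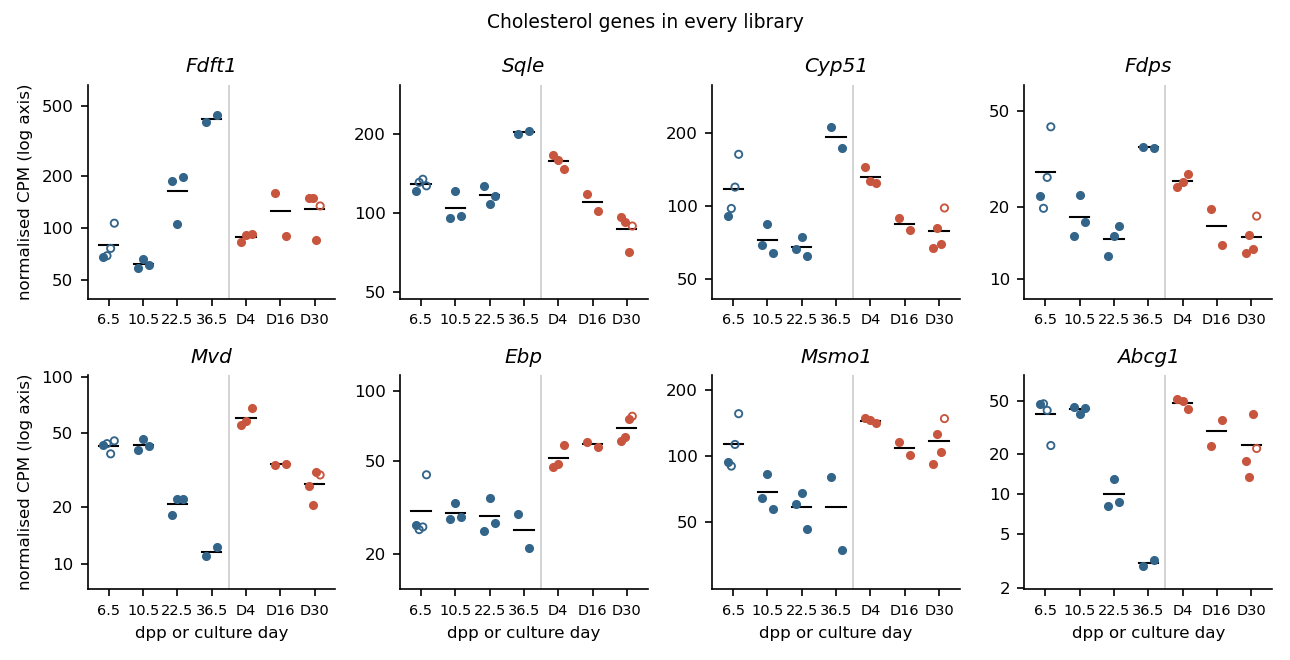
Normalised CPM of Fdft1, Sqle, Cyp51, Fdps, Mvd, Ebp, Msmo1 and Abcg1 in each of 21 libraries by stage on log axes, with blue points for in vivo testis, red points for culture, open symbols for CSF tissue and a bar at the stage mean. Cyp51 and Msmo1 stood higher at D4 than at 10.5 dpp, and Fdft1, Sqle, Cyp51 and Fdps had their highest stage mean at 36.5 dpp, where Abcg1 was lowest at 2.92 and 3.19.

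At D16, 9 members were higher than at 22.5 dpp and 1 was lower, beside 14.0% of genes higher and 11.8% lower. Ebp, again among them, stood at 25.3, 34.8 and 27.1 at 22.5 dpp and at 60.4 and 57.7 at D16 (log2 fold change 1.02 ± 0.23, adjusted p = 0.00523 in edgeR), and Mvd at 18.1, 22.1 and 22.3 and then at 33.8 and 34.3 (0.71 ± 0.18, adjusted p = 0.00968). Abcg1 stood at 8.13, 13.1 and 8.74 and then at 23.0 and 36.0 (1.56 ± 0.37, adjusted p = 0.0067). In all 3 genes both D16 libraries lay above the 22.5 dpp libraries. Ggps1, which makes geranylgeranyl diphosphate, Msmo1, Hsd17b7, Dhcr7, Srebf2 and Stard4 were the other members called higher, with log2 fold changes from 0.55 to 1.00, and the calls of Ggps1, Msmo1 and Hsd17b7 were lost with RLE factors. Tm7sf2 was the member called lower, at 23.8, 26.7 and 26.9 in testis and 11.5 and 12.8 in explants (-1.09 ± 0.24, adjusted p = 0.0041). The groups did not overlap in 15 members with D16 higher (26.3% of all genes) and in 2 with D16 lower (26.2%), Tm7sf2 and Sc5d. The median log2 difference was 0.48 in the members and -0.08 in all genes. Calls numbered 2 without D16 replicate 2, and 5 without 22.5 dpp replicate 1 or 22.5 dpp replicate 3; those of Ebp and Tm7sf2 were kept in all 21 fits.

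At D30, 14 members were higher than at 36.5 dpp and 6 were lower, beside 32.4% of genes higher and 35.0% lower. With library totals as the only scaling the split was 19 to 4, and Tm7sf2 and Sc5d were not among the 4. The 6 lower members were Fdps, Fdft1, Sqle, Cyp51, Tm7sf2 and Sc5d, of which the first 4 had risen in vivo between 22.5 and 36.5 dpp, a comparison that shares its 36.5 dpp libraries with this one. Sqle stood at 201 and 206 at 36.5 dpp and at 96.2, 92.8, 70.8 and 89.2 at D30 (log2 fold change -1.22 ± 0.15, adjusted p = 2.55e-06 in edgeR). Fdft1 stood at 404 and 444 and then at 149, 148, 85.7 and 134 (-1.71 ± 0.26, adjusted p = 2.82e-05), and Cyp51 at 211 and 174 and then at 67.1, 81.1, 69.6 and 98.0 (-1.28 ± 0.21, adjusted p = 4.83e-05). Every D30 library lay below both testis libraries in these 3 genes. Fdps, at 35.6 and 35.3 against 12.8, 15.3, 13.4 and 18.3, gave -1.25 ± 0.26 (adjusted p = 0.000426), and Tm7sf2 and Sc5d gave -0.82 ± 0.21 and -0.79 ± 0.20 (adjusted p = 0.00255 and 0.00224).

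Among the 14 members higher at D30 than at 36.5 dpp, Abcg1 differed most, at 2.92 and 3.19 in testis against 17.8, 13.4, 40.1 and 22.0 in explants (log2 fold change 2.93 ± 0.42, adjusted p = 1.36e-05 in edgeR). Soat1 stood at 80.4 and 97.9 and then at 279, 241, 345 and 250 (1.64 ± 0.23, adjusted p = 1e-05), and Mvd at 11 and 12.2 and then at 26.1, 20.6, 30.9 and 29.8 (1.21 ± 0.18, adjusted p = 2.08e-05). Ebp stood at 29.8 and 21.3 and then at 61.0, 63.7, 75.7 and 78.0 (1.45 ± 0.24, adjusted p = 5.26e-05). The groups did not overlap in any of these genes. Ggps1, Scap, Npc1, Abca1, Hsd17b7 and Dhcr7 were higher by 1.14 to 1.74 on the log2 scale, and Acat2, Msmo1, Srebf2 and Stard4 by 0.85 to 1.00.

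By role, 3 of the 8 mevalonate genes were higher and 1 lower at D30, none of the 3 genes from squalene to lanosterol was higher and 2 were lower, 4 of the 8 genes after lanosterol were higher and 3 lower, 2 of 3 sensing genes were higher and 5 of 6 genes of uptake, transport, storage and efflux were higher. Of all genes 32.4% were higher and 35.0% lower. Groups of 3 to 8 genes are too small to judge against these shares and carry no test of their own. The groups did not overlap in 15 members with D30 higher (34.8% of all genes) and in 7 with D30 lower (36.3%). The members' median log2 difference lay above that of all genes by 0.68 with TMM, 0.68 with RLE factors and 0.69 with library totals alone, while the median of all genes was -0.03, -0.29 and 0.60 under these scalings. Of the 20 calls, 13 were kept in all 21 fits. Acat2 and Msmo1 were not called without 36.5 dpp replicate 2 (adjusted p = 0.0736 and 0.153 in edgeR), nor Tm7sf2, Sc5d, Srebf2, Npc1 and Abca1 without 36.5 dpp replicate 1 (adjusted p = 0.0974, 0.0926, 0.126, 0.0656 and 0.0803), the lone library left being assumed to vary as the other stages do.

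**Figure D4:**
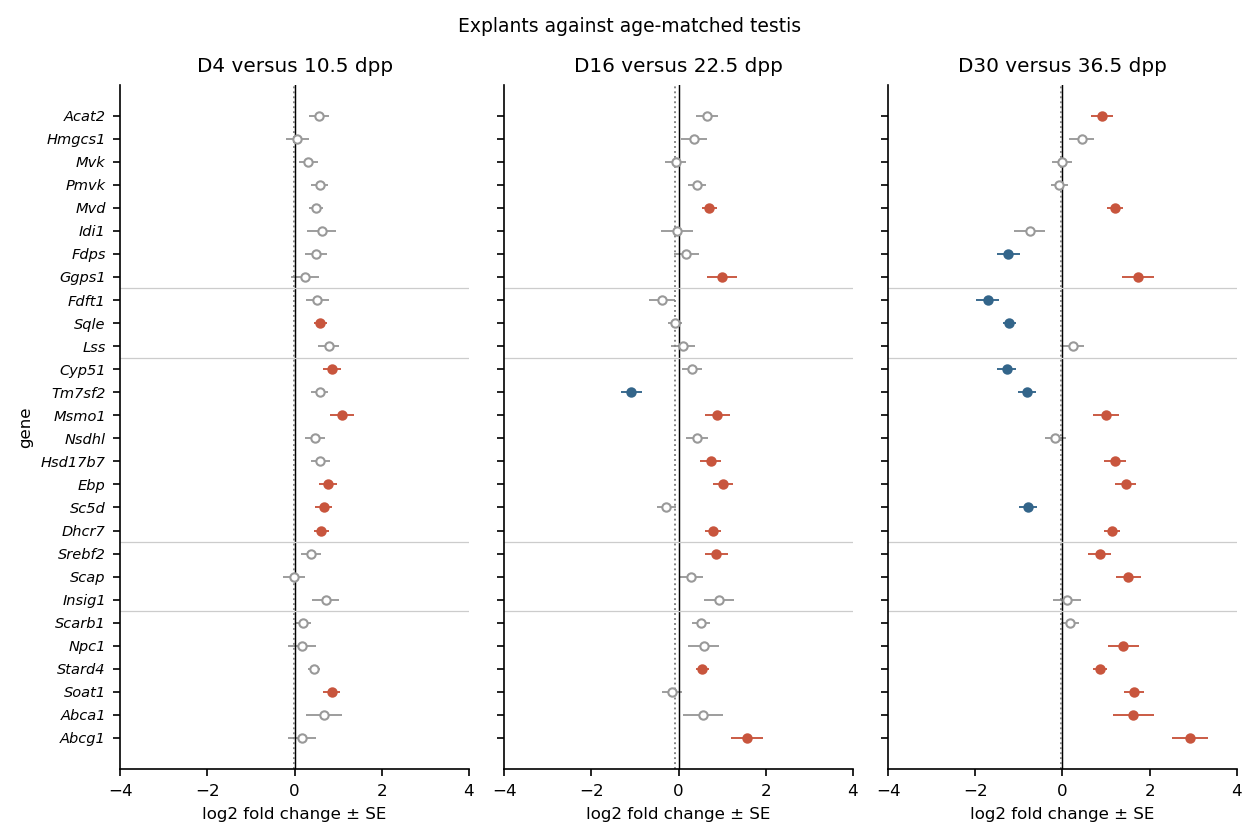
Log2 fold change of each member in explants over testis of the same age at D4, D16 and D30, with bars of 1 SE, points filled in red (higher) or blue (lower) for an adjusted p under 0.05, open grey points for others and a dotted line at the median of all genes. At D4 the 7 called members lie to the high side, and at D30 there are 14 called high and 6 called low, from -1.71 for Fdft1 to 2.93 for Abcg1.

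Whether the difference from testis itself changed with time in culture was tested as an interaction. Between D4 and D16 it changed in 2 members, both downwards, beside 5.26% of genes upwards and 4.36% downwards. For Tm7sf2 the difference from testis went from 0.57 at D4, not called, to -1.09 at D16, a change of -1.66 ± 0.31 on the log2 scale (adjusted p = 0.00394 in edgeR) that was kept in all 21 fits. For Soat1 it went from 0.85 to -0.15, a change of -1.0 ± 0.30 (adjusted p = 0.0424). The count was 1 without any of 6.5 dpp CSF replicate 1 or 2, 10.5 dpp replicate 1 or 3, 22.5 dpp replicate 1 or 3 and D4 replicate 1, 2 or 3, and 5 without 6.5 dpp CSF replicate 3, 22.5 dpp replicate 2 or D30 fresh replicate 3.

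Between D4 and D30 the difference from testis changed in 13 members, 6 upwards and 7 downwards. These shares were close to the 25.8% of all genes called upwards and 20.7% downwards. The split was 3 to 9 with RLE factors and 14 to 5 with library totals alone, where Idi1 and Tm7sf2 were not called, while Mvd, Npc1 and Soat1 were not called with RLE factors. The largest downward changes were in Fdft1 (-2.23 ± 0.37, adjusted p = 0.000172 in edgeR), Cyp51 (-2.15 ± 0.30, adjusted p = 3.46e-05) and Sqle (-1.81 ± 0.21, adjusted p = 8.82e-06). In Sqle, Cyp51 and Sc5d explants were called above testis at D4 and below it at D30. Fdps, Sc5d, Tm7sf2 and Idi1 also changed downwards, by 1.75, 1.46, 1.39 and 1.38. Upward changes were called in Abcg1 (2.76 ± 0.52, adjusted p = 0.000416), Scap (1.53 ± 0.37, adjusted p = 0.00282), Ggps1, Npc1, Soat1 and Mvd. Calls of Fdps, Fdft1, Sqle, Cyp51, Tm7sf2, Sc5d, Scap and Abcg1 were kept in all 21 fits.

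A list of 22 other sterol genes, holding the processing proteases, LXR receptors, lipoprotein receptors, lipases and sterol carriers that are not among the 28, was followed in the same fit. At D4 against 10.5 dpp 3 were higher and 1 lower, beside 4.92% and 3.18% of all genes. Against 22.5 dpp the D16 explants had 9 higher and 3 lower, beside 14.0% and 11.8%. Against 36.5 dpp the D30 explants had 13 higher and 4 lower, beside 32.4% and 35.0%, with a median log2 difference of 1.04 in the list and -0.03 in all genes. Vldlr, a receptor that takes up triglyceride-rich lipoproteins, showed the largest difference of the list at D4 and at D16. It stood at 11, 11.9 and 10.0 at 10.5 dpp and at 97.3, 105 and 85.5 at D4 (log2 fold change 3.13 ± 0.19, adjusted p = 1.41e-08 in edgeR). At 22.5 dpp it stood at 1.56, 1.51 and 1.44 and at D16 at 40.2 and 46.4 (4.84 ± 0.21, adjusted p = 2.34e-10). At 36.5 dpp it stood at 3.10 and 2.71 and at D30 at 29.6, 27.7, 31.0 and 19.7 (3.22 ± 0.22, adjusted p = 1.38e-08). The explants lay far above testis at each age, and the D4 level was also above the 10.8 to 14.5 of the 6.5 dpp testes.

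Srebf1, the relative of Srebf2 tied more to fatty acid synthesis, did not pass at D4 but was higher at D16 (1.43 ± 0.31, adjusted p = 0.00427 in edgeR) and at D30 (2.71 ± 0.35, adjusted p = 4.77e-06), where it stood at 164, 118, 244 and 122 against 19.5 and 30.0. Lipa, the lysosomal lipase that frees cholesterol from its esters, was higher at D16 and D30 by 1.67 ± 0.38 and 2.83 ± 0.42 (adjusted p = 0.00525 and 2.05e-05). Mylip, which marks lipoprotein receptors for breakdown, and Mbtps1, the first of the proteases that cut SREBF2, were higher at D30 by 2.05 ± 0.23 and 1.69 ± 0.26 (adjusted p = 1.19e-06 and 2.44e-05). Lipe, a hormone-sensitive lipase that also splits cholesterol esters, stood at 430 and 683 at 36.5 dpp after 36.2, 25.3 and 39.3 at 22.5 dpp, and at 73.1, 45.8, 31.1 and 21.4 at D30 (-3.70 ± 0.35 against 36.5 dpp, adjusted p = 2.37e-07). Star, which moves cholesterol into mitochondria for steroid synthesis, was lower in explants at D4, D16 and D30 by 1.20, 1.04 and 0.76 on the log2 scale (adjusted p = 0.00575, 0.0168 and 0.0155 in edgeR). Nr1h3, an LXR receptor, rose in vivo from 1.94, 1.89 and 1.77 at 10.5 dpp to 17.4, 10.4 and 20.6 at 22.5 dpp (3.11 ± 0.29, adjusted p = 7.62e-08) and was lower at D30 than at 36.5 dpp by 1.00 (adjusted p = 0.00368).

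**Figure D5:**
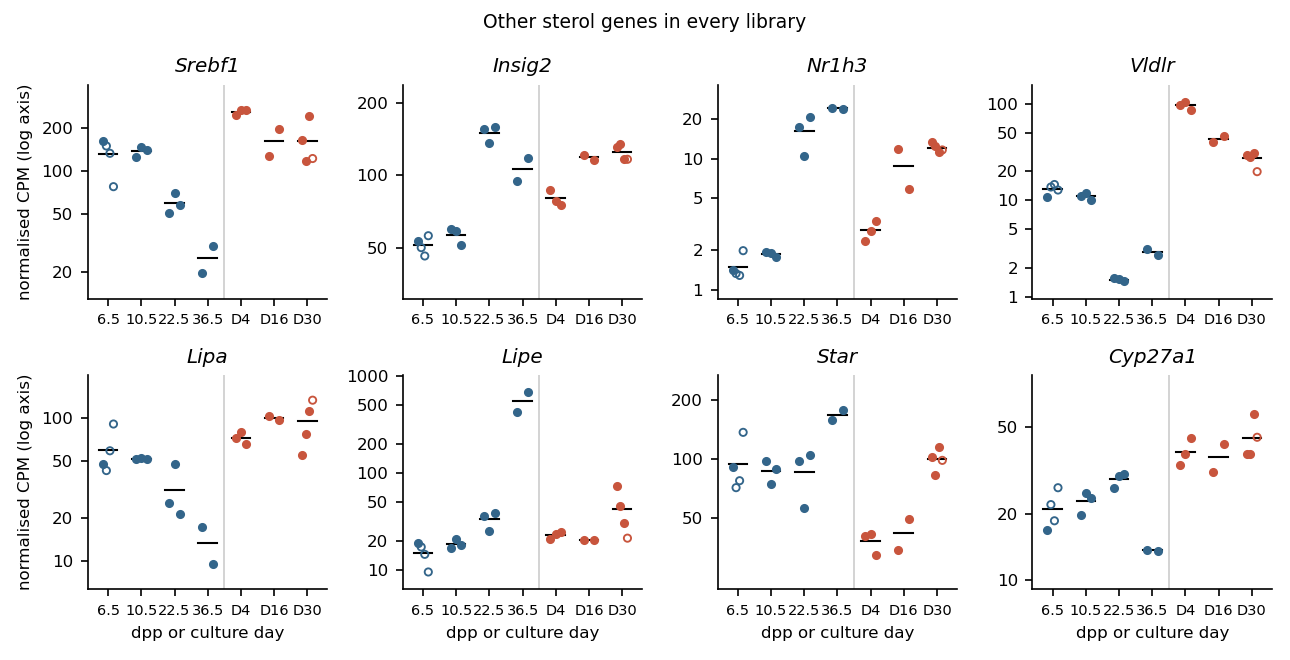
Normalised CPM of Srebf1, Insig2, Nr1h3, Vldlr, Lipa, Lipe, Star and Cyp27a1 in each of 21 libraries by stage on log axes, with blue points for in vivo testis, red points for culture, open symbols for CSF tissue and a bar at the stage mean. Vldlr stood at 85.5 to 105 at D4 against 10.0 to 11.9 at 10.5 dpp, and Lipe at 430 and 683 at 36.5 dpp.

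Marker levels differed between explants and testes along with the members. The Leydig cell markers Cyp11a1, Cyp17a1, Hsd3b1 and Insl3 summed to 236.1 to 434.1 normalised CPM at D4 against 773.3 to 935.6 at 10.5 dpp (2 of 4 called lower), to 175.2 to 176.7 at D16 against 767.4 to 940.7 at 22.5 dpp (4 of 4 lower) and to 221.3 to 420.6 at D30 against 2224 to 2754 at 36.5 dpp (4 of 4 lower). The Sertoli cell markers Cldn11, Dhh, Fshr and Rhox5 summed to 889.9 to 1076 at D4 against 574.5 to 667.1 (0 of 4 called), to 663.9 to 965.2 at D16 against 233.5 to 350.8 (3 of 4 higher, 1 lower) and to 684.1 to 1169 at D30 against 118.8 to 136.2 (3 of 4 higher). The spermatid markers summed to 250.1 to 1339 at D30 against 21520 to 26310 at 36.5 dpp (4 of 4 lower), and were near 0 at D4, at 0.3185 to 0.7287. Macrophage markers summed to 28.65 to 32.60 at D4 against 94.46 to 126.6 at 10.5 dpp (4 of 5 lower) and to 171.7 to 216.5 at D30 against 104.5 to 105.6 at 36.5 dpp (4 of 5 higher). Endothelial markers summed to 204.3 to 216.0 at D4 against 147.1 to 167.3 (2 of 3 higher) and to 120.3 to 174.5 at D30 against 21.12 to 23.42 (3 of 3 higher). At D16 macrophage markers summed to 116.9 to 132.2 against 175.5 to 230.8 at 22.5 dpp. Spermatocyte markers at these stages summed to 678.4 to 1008 against 1647 to 1819, and endothelial markers to 181.9 to 250.9 against 36.19 to 52.43. Myoid markers summed to 342.5 to 508.6 at D4 against 732.2 to 813.4. They summed to 243.1 to 244.9 at D16 against 317.2 to 442.8, and to 229.2 to 429.1 at D30 against 102.3 to 115.4. The part of these cell types in the members' differences was not tested.

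Libraries of 1 stage also differed in how long and short genes stood to each other. Genes were split into 3 classes of near equal number by exon length, at 2719 and 5224 bases, and 5 members fell in the short, 11 in the middle and 12 in the long class. Each library was set against the mean of the other libraries of its stage. In 6.5 dpp CSF replicate 3 the median deviation was lower for long than for short genes by 0.68 on the log2 scale. The other libraries of that stage had long genes higher by 0.17 to 0.32, against means that held CSF replicate 3. The stages with 2 libraries, 36.5 dpp and D16, each gave 1 difference with opposite signs. It was -0.53 in replicate 1 and 0.53 in replicate 2 at 36.5 dpp, and -0.47 and 0.47 at D16. Which library deviated cannot be told from these values. At D30 against 36.5 dpp the median log2 difference of all genes was -0.68, 0.16 and 0.25 in the short, middle and long classes, and that of the members 0.91, -0.76 and 1.07. At D4 against 10.5 dpp it was -0.02, -0.01 and 0.00 in all genes and 0.57, 0.57 and 0.52 in the members, so the members' median lay above that of all genes in each class.

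Freezing could be looked at only as values side by side. At D30 the CSF library lay between 0.625 (Npc1) and 1.512 (Insig1) times the mean of the 3 fresh libraries over the 28 members, with a median of 1.039, and 15 members fell inside the fresh range. None of 28 differed by 2-fold or more, against 10.9% of all genes. At 6.5 dpp the mean of the 3 CSF libraries lay between 0.7529 (Srebf2) and 1.611 (Insig1) times fresh replicate 2. By this mean again none differed by 2-fold or more, against 11.7% of all genes. CSF replicate 3 alone was over 2-fold away in some members, such as Abca1 (87.57 against 244.0) and Ggps1 (107.4 against 49.0). Insig1 had the highest ratio at both stages. It stood at 56.1 in the CSF library against 29.6, 40.7 and 41.0 in fresh tissue at D30, and at 71.6, 89.9 and 158 against 66.2 at 6.5 dpp.

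Some levels are uncertain because reads of 50 bases can match more than 1 gene. Of the longest coding transcript of Fdps, 81.6% was made of 50-base stretches also found in the transcript of another annotated gene, Gm43738, and of that of Idi1 33.3%, in Gm13502 and Gm48574, so the counting could have split or dropped their reads. The share was 20.9% for Fdft1, 18.6% for Scap, 16.2% for Hmgcs1 and 11.7% for Npc1, and 0 to 7.46% for the other members. For Fdft1 (Ctsb), Scap (5830462I19Rik), Hmgcs1 (Gm48342) and Npc1 (Gm15956 and Rmc1) the sharing genes overlapped on the opposite strand. In these stranded libraries the bearing of that on the counts depends on the strand setting, which is not given. Exons of Tm7sf2 overlapped those of Vps51 on the same strand over 12.1% of their length. Sqle and Ebp, which showed clear differences, shared none.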

How the data were processed

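RNA-seq libraries (poly(A), stranded, single-end reads of 50 bases) had been aligned by the authors with STAR 2.7.3a to GRCm38/mm10 and counted per gene with HTSeq 0.12.4. The deposited values are raw counts, with no normalisation. The strand setting and the annotation used for counting are not given in the sources used here. Of 27466 gene identifiers, 27373 had a symbol in GRCm38.p6, and 0.0207% of counts lay on the others.

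Counts were analysed with edgeR 4.0.16 (R 4.3.3): TMM factors, filterByExpr (19255 genes), 1 fit over 7 stages and 21 libraries with fresh and CSF tissue together, quasi-likelihood F tests, and Benjamini-Hochberg adjustment over all genes tested. A gene was called at an adjusted p under 0.05. Alternatives were RLE factors, library totals alone, no filter, DESeq2 1.42.0, the study's threshold, fresh tissue only, the left-out library put back, a replicate block and leaving out each library. Identical columns were counted once. Total counts of 28351546 to 69029328 a library set the counting precision. The p-values set a difference against the spread between libraries, which was estimated in 1 fit over 7 stages. All members were named, in pathway order, with the other sterol and marker genes. The members and lists were chosen with earlier results of these data known.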

Additional observations from a re-analysis of the deposited data

Results flagged for a closer look

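Among the 56 sets of 4 libraries looked at (28 members at 6.5 dpp and at D30), 2 held a library whose gap to the nearest other passed Dixon's limit for an outlier, where chance gives about 1 in 20. Both were 6.5 dpp CSF replicate 3. Ebp stood there at 43.79 normalised CPM, with the other 3 libraries at 25.51 to 26.65, and Abca1 at 87.57, with the others at 231.3 to 244.0. In the same library long genes lay below short genes by 0.68 on the log2 scale, relative to the other libraries of its stage. The part of this in both values was not tested.

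The difference between explants and testis of the same age changed between culture times in the following members, by a test of the interaction in edgeR. Between D4 and D16 it changed by -1.66 in Tm7sf2 and -1.0 in Soat1 on the log2 scale. Between D4 and D30 it changed upwards by 0.73 in Mvd, 1.5 in Ggps1, 1.53 in Scap, 1.23 in Npc1, 0.79 in Soat1 and 2.76 in Abcg1. It changed downwards over the same time by -1.38 in Idi1, -1.75 in Fdps, -2.23 in Fdft1, -1.81 in Sqle, -2.15 in Cyp51, -1.39 in Tm7sf2 and -1.46 in Sc5d. Of all genes 5.26% changed upwards and 4.36% downwards from D4 to D16. From D4 to D30 it was 25.8% and 20.7%, close to the members' shares. Spermatid markers, at 0.3185 to 0.7287 at D4 and 250.1 to 1339 at D30 against 0.688 to 3.348 at 10.5 dpp and 21520 to 26310 at 36.5 dpp, moved with this contrast, and their part was not tested.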

How the results depend on the processing

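Over 8932 values of single members under the alternatives, 8425 stayed on the same side of the threshold, of which 211 were called in neither fit and had the other sign, 350 lost a call, 155 gained one and 2 turned: with library totals alone Mvk and Pmvk were higher at D30 than at 36.5 dpp by 0.62 and 0.57. Counts of members called moved by over 1.5 times as follows. At the study's threshold (absolute log2 fold change of at least 2, adjusted p up to 0.001) they were 1 at 22.5 against 10.5 dpp, 1 at D30 against 36.5 dpp, 3 for the change of the difference from D4 to D30 and 0 in the other 7 comparisons with calls. With library totals alone they were 20 at 36.5 against 22.5 dpp, 5 at D4 against 6.5 dpp, 4 at D4 against 10.5 dpp and 1 for the change from D4 to D16. DESeq2 called 2 at 10.5 against 6.5 dpp, 9 at D16 against D4, 11 at D4 against 10.5 dpp and 4 for the change from D4 to D16, where RLE factors also gave 4. Without a filter the counts were 3 at D16 against D4 and 1 for the change from D4 to D16. With 6.5 dpp fresh replicate 1 put back they were 4 at D4 against 6.5 dpp, 2 at D16 against D4, 0 at D30 against D16, 2 at D4 against 10.5 dpp and 1 for the change from D4 to D16. Fresh tissue only gave 2 at D4 against 6.5 dpp, 11 at D16 against D4 and 0 at D30 against D16. The cause was not tested.

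Leaving out 1 library at a time gave 0 to 1 members at 10.5 against 6.5 dpp (1 without 6.5 dpp fresh replicate 2), 12 to 16 at 22.5 against 10.5 dpp, 10 to 17 at 36.5 against 22.5 dpp, 4 to 8 at D4 against 6.5 dpp, 1 to 11 at D16 against D4, 0 to 1 at D30 against D16, 0 to 11 at D4 against 10.5 dpp, 2 to 13 at D16 against 22.5 dpp, 15 to 21 at D30 against 36.5 dpp, and 1 to 5 and 10 to 16 for the changes from D4 to D16 and to D30. The labels give replicate numbers but no shared animal or day, and deviations of same-numbered libraries correlated from -0.524 to 0.663, so the numbers were not taken to pair samples. With the replicate number as a block the count at D30 against D16 was 0, and all other counts stayed within 1.5 times. Having 2 libraries at 36.5 dpp and at D16 limits the precision there.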
